A study of Mus musculus with 18 samples.

Results

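Malat1, Neat1, Kcnq1ot1, Airn, Gas5 and Snhg1 are 6 long noncoding RNAs that are known either as abundant or chromatin-bound nuclear RNAs or as host genes of small nucleolar RNAs (snoRNAs). They were chosen by name, and their peaks were read on the gene's own strand in GENCODE M21 (GRCm38). Of the 6 genes, 5 had a peak in at least 1 library, among 8849 annotated genes with an own-strand peak anywhere. Together they held 60 of the 82353 peaks of the experiment, 54 in undigested RNA, 4 in RNase-only and 2 in MDA5-protected libraries. No peak lay on their opposite strand.

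Liver total RNA came from mice 8 to 9 days old. Control mice were Mavs-/- (named wild-type in the sample titles), so they lacked MAVS, the adaptor through which the RNA sensor MDA5 signals, but kept the editing enzyme ADAR1. Editing-deficient mice (Adar-/-; Mavs-/-) lacked both, and the double mutant was bred by intercrossing single mutants and backcrossing to Bl6J. The purified RNA was incubated with recombinant MDA5 without its CARD domains and digested with RNases A and T1 (MDA5-protected), digested without MDA5 (RNase-only) or left undigested (Input), with 3 libraries of each fraction and genotype, 18 in all. Because the RNA was extracted before MDA5 was added, nuclear transcripts were exposed to the protein along with cytoplasmic ones, and the assay does not show which RNAs meet MDA5 in a cell.

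Malat1 RNA lies in nuclear speckles, and its 3′ end is made by RNase P, which releases a small tRNA-like RNA, Mascrna, that leaves the nucleus. Neat1 is the scaffold of paraspeckles and is made as a short and a long isoform that share their 5′ end. Kcnq1ot1 and Airn are imprinted antisense RNAs that act on neighbouring genes in cis and are mostly left unspliced. Gas5 and Snhg1 carry snoRNAs in their introns, and the snoRNAs, which guide chemical modification of other RNAs, are stable while the spliced host RNA is turned over quickly.

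The values are peak lists made per library. A covered share is the percentage of a gene's annotated exonic bases that lie in peaks of that library. Input peaks were called without a control, whereas peaks of digested RNA were called against Input of the same genotype, so a covered share is not an RNA level, and a digested transcript without a peak was not enriched over Input rather than absent. Read counts are not part of the lists, and the depth under each share is therefore unknown. Input lists held 4326 to 6625 peaks in Mavs-/- and 6991 to 8948 in editing-deficient mice. RNase-only lists held 3150 to 5572 and 5605 to 6094, and MDA5-protected lists 1180 to 1829 and 1636 to 2868. All 5 hepatocyte markers had exonic Input peaks in all 6 Input libraries, as did 4 of 6 erythroid, 4 of 5 Kupffer cell, 1 of 5 endothelial, 1 of 5 stellate or fibroblast and 0 of 5 cholangiocyte markers. In digested RNA the picture differed. No hepatocyte, erythroid, Kupffer cell or endothelial marker had an exonic peak in any of the 12 digested libraries. In RNase-only libraries, 3 of 5 stellate or fibroblast markers (Col1a1, Col3a1 and Dcn) and 3 of 5 cholangiocyte markers (Krt19, Krt7 and Epcam) had exonic peaks, and in MDA5-protected libraries none of the former and Krt19 and Epcam of the latter. The covered shares of the 5 cholangiocyte markers summed to 0 to 34.6% in Input, all from Spp1, to 112 to 134% in RNase-only and to 18.4 to 52.1% in MDA5-protected libraries, with Sox9 at 0 in all. Muc13, Guca2a and Pyy, epithelial genes best known from the intestine and chosen here after their values were seen, had no exonic Input peak, and mean shares of 68.9%, 67.5% and 56.8% in RNase-only libraries, with peaks in all 6. The part of these epithelial RNAs in the comparisons of digested RNA with Input was not tested. In Adar itself, Input peaks were listed in editing-deficient replicates 2 and 3, both in exon 2, and in no Mavs-/- library. The sources used here do not give the exons that the allele lacks, so these peaks do not check the genotype labels.

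The sequences below carry the ends and stretches that the results turn on. They are GENCODE M21 transcript letters, 5′ to 3′. In Snord22 (chr19:8725866-8725991, plus strand), capitals mark the bases inside the Snhg1 Input peak of all 6 libraries. In the Malat1 3′ stretch (chr19:5795924-5796081, minus strand), which begins at the first base past the peaks shared by all 6 Input libraries, capitals mark Mascrna as RefSeq places it. Gm22357 (chr1:161036057-161036139, plus strand) is the only snoRNA of Gas5 with a peak, and the Neat1 stretch (chr19:5844174-5844400, minus strand) lay in Input peaks of 5 of 6 libraries, so neither has capitals.
Snord22: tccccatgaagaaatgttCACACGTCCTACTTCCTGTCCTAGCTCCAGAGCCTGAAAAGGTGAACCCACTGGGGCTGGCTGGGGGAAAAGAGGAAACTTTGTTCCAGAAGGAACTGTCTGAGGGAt
Malat1 3′ stretch: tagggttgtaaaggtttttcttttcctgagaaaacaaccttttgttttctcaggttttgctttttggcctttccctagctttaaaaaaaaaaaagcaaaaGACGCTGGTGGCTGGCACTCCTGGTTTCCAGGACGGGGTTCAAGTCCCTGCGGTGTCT
Gm22357: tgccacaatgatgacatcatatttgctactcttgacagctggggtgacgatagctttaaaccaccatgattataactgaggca
Neat1 stretch: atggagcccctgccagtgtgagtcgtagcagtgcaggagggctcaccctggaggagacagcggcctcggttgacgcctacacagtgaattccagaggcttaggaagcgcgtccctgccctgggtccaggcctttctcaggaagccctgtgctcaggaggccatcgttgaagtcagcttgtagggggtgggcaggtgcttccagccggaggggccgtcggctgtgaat

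Input peaks of Malat1 (ENSMUSG00000092341.3, chr19:5795690-5802672, minus strand) covered nearly all of the transcript in every undigested library. No digested library had a peak enriched over Input. The gene is annotated as an unspliced block of 6983 nt. In Mavs-/- Input, 94.2%, 91.6% and 89.3% of its bases lay in peaks (replicates 1 to 3), and in editing-deficient Input 94.2%, 93.9% and 92.5%. The genotypes overlapped, at 91.7 ± 2.48% and 93.5 ± 0.926% (SD, n = 3 each), with a difference of 1.81 percentage points (two-sided exact permutation test, p = 0.40). With 3 libraries against 3 this test cannot give a p under 0.10, so it does not show that the genotypes are alike. The difference was 3.07 without Mavs-/- replicate 1 and 0.59 without Mavs-/- replicate 3. The median of 93.2% ranked 155 among 5274 genes with an exonic Input peak.

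**Figure D1:**
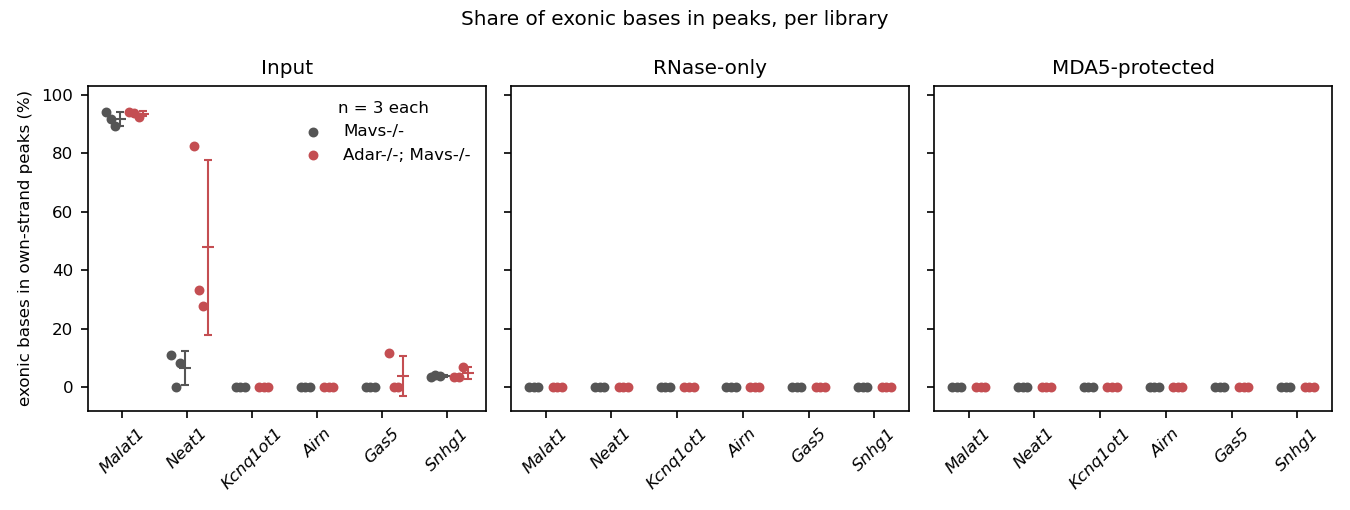
Percentage of exonic bases in own-strand peaks (y axis) for each of the 6 genes (x axis) in Input, RNase-only and MDA5-protected libraries. Points are libraries and the bars give the mean ± SD of 3 libraries, grey for Mavs-/- and red for editing-deficient mice. Malat1 stands at 89.3 to 94.2% in all Input libraries, Neat1 is split by genotype, and every point of the digested fractions is at 0.

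The strongest Malat1 peak ranked between 4 and 12 by area, the summed significance that the peak caller gives, within its library. A single peak of 6556 to 6579 nt spanned the transcript in Mavs-/- replicate 1 and in editing-deficient replicates 1 and 2. The other Input libraries were broken by gaps of 107 to 141 nt. These gaps lay between positions 2292 and 3321 from the 5′ end, in 1 place in Mavs-/- replicate 2 and in editing-deficient replicate 3 and in 2 places in Mavs-/- replicate 3. Over all 6 Input libraries, 5953 bases (85.2% of the gene) were covered in each of them.

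Coverage began close to the 5′ end and stopped short of the 3′ end. The uncovered 5′ stretch was 15, 126 and 140 nt in Mavs-/- and 19, 35 and 37 nt in editing-deficient Input, whereas the uncovered 3′ stretch was 389, 318 and 379 nt and 387, 392 and 364 nt. All 6 Malat1 peaks that lay farthest 3′ ended before Mascrna, by 97, 26 and 87 nt in Mavs-/- and by 95, 100 and 72 nt in editing-deficient libraries. Mascrna, 58 nt at positions 6692 to 6749, carried no peak in the 18 libraries, and neither had the 234 nt of the annotated gene beyond it. Short RNAs were seldom listed, as 1 of 458 snoRNA genes under 100 nt had an Input peak in all 6 libraries. Whether RNAs of this size were retained in the libraries was not tested. In the 3′ stretch printed above, the longest run of A upstream of Mascrna was 12 nt (positions 6674 to 6685, 6 nt before it), and only the sense strand was searched. The same run of 12 A occurred in the last 158 nt of 0.96% of 5836 longest lincRNA transcripts. The Malat1 run lies outside the last 158 nt of its own annotated transcript, since Mascrna and 234 nt follow it. That share therefore describes a different place and does not show how rare the Malat1 run is.

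**Figure D2:**
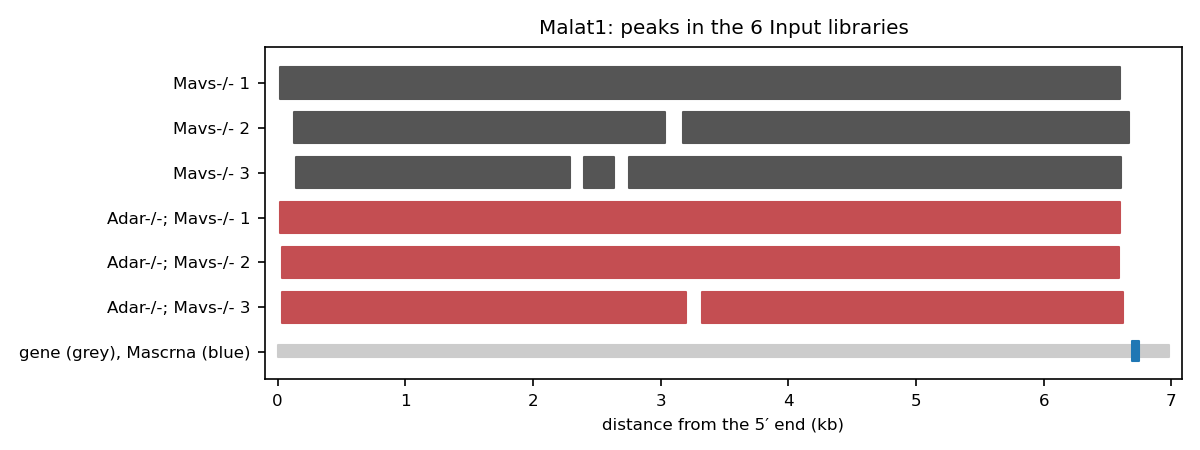
Input peaks along Malat1, with the distance from the 5′ end in kb on the x axis and 1 row for each Input library, grey for Mavs-/- and red for editing-deficient mice. The bottom row shows the gene in grey and Mascrna in blue, and all 6 rows end before Mascrna.

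No RNase-only and no MDA5-protected library had a Malat1 peak, 0 of 12 digested libraries. The covered share fell from 92.6 ± 1.94% in Input to 0 in RNase-only RNA (SD, n = 6 each, exact permutation test within genotype, p = 0.005, Benjamini-Hochberg adjusted p = 0.025 over 7244 genes). This p is the smallest that 400 arrangements can give, and 1435 genes reached it. Digested peaks were called against Input and Input peaks without a control. A fall in covered share, here and below, therefore does not measure RNA lost to RNase. A lower share in RNase-only than in Input was called in 17.4% of all genes tested, so the call is common. The epithelial genes Krt19 and Epcam went the other way, from 0 in Input to mean shares of 61.9% and 56.8% in RNase-only RNA, and whether this bears on the Malat1 difference was not tested. Among genes with exonic Input peaks in all 6 libraries, 69.7% had no exonic peak in any digested library, and among the 163 genes covered over at least 80% of their exonic bases in every Input library, a limit chosen after the Malat1 values were seen, 79.1% had none. Of these 163 genes, 4 had at least 5000 nt of exon, Malat1 among them, and all 4 lacked a peak in digested RNA. With MDA5 there was no Malat1 base to compare, in either genotype.

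Neat1 (ENSMUSG00000092274.3, chr19:5824708-5845478, minus strand, 20771 nt) had more of its length in Input peaks in editing-deficient than in Mavs-/- mice. In Mavs-/- Input the covered share was 11.3%, 0% and 8.28%, and in editing-deficient Input 82.4%, 33.4% and 27.8%. The groups did not overlap, at 6.51 ± 5.83% and 47.8 ± 30.04% (SD, n = 3 each), a difference of 41.3 percentage points. The two-sided exact permutation test gave p = 0.10, the smallest that 3 libraries against 3 allow. Without editing-deficient replicate 1, the highest library, the difference was 24.1 percentage points and the groups stayed apart.

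The same separation was frequent across the transcriptome. Of 5274 genes with an exonic Input peak, 16.5% had a higher share in every editing-deficient than in every Mavs-/- library, against 159 genes with the opposite order, and the median difference over all genes was 3.42 percentage points. Input lists of editing-deficient mice were also longer, as given above. With equal numbers of peaks per library, 384 of 3591 genes separated upwards and 241 downwards, and the difference in Neat1 was 37.5 percentage points, still without overlap. Some marker lists of cell types moved with genotype too, and others overlapped. The summed covered shares in Input were 15.9 to 33.4% in Mavs-/- and 58.4 to 89.6% in editing-deficient libraries for the 5 endothelial markers (Pecam1 at 0 in all), 360 to 412% and 264 to 319% for the 6 erythroid markers, and 41.1 to 86.4% and 12.6 to 32.2% for the 5 stellate or fibroblast markers (Lrat at 0 in all). Kupffer cell markers separated narrowly, at 202.2 to 226.9% and 227.3 to 252.2%. Hepatocyte markers overlapped, at 366 to 413% and 378 to 417%, as did cholangiocyte markers, at 0 to 34.6% and 0 to 24.0%. The part of cell types in the Neat1 difference was not tested, and more RNA per cell and more cells of a type cannot be told apart in tissue RNA.

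In Mavs-/- libraries, 6 of 7 Neat1 peaks reached into the 5′ part that both isoforms share. In editing-deficient libraries 8 of 30 peaks did, and 22 lay wholly in the part of the long isoform. The number of Input peaks was 3, 0 and 4 in Mavs-/- and 9, 12 and 9 in editing-deficient libraries. Splitting the gene at the end of the annotated short isoform, a choice made after the peaks were seen, left 3172 nt that belong to both isoforms and 17599 nt of the long isoform alone. The peak counts do not show a shift between isoforms, since the long-isoform part is most of the gene and a long peak counts once. In the shared 5′ part the covered share was 73.7%, 0% and 40.8% in Mavs-/- and 99.5%, 81.9% and 82.0% in editing-deficient Input. In the part that only the long isoform holds it was 0%, 0% and 2.41% against 79.3%, 24.6% and 18.0%. Every library with a Neat1 peak, in both genotypes, had the higher share in the shared part. The genotypes did not overlap in either part, with differences of 49.7 and 39.8 percentage points (two-sided exact permutation tests, p = 0.10 for both).

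Long-isoform sequence was listed in 1 of 3 Mavs-/- libraries, as a peak of 424 nt at positions 15153 to 15576, and in all 3 editing-deficient libraries. Editing-deficient replicate 1 had a peak of 6946 nt that ran from position 16 to 6961, and its last peak ended 11 nt before the annotated 3′ end, at position 20760. The bases covered in all 3 editing-deficient libraries, 3431 nt or 16.5% of the gene, ended at position 6518. No base was covered in all 6 libraries, and 822 nt were covered in 5 of 6, in stretches of 400, 227 and 195 nt within the first 1647 nt.

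**Figure D3:**
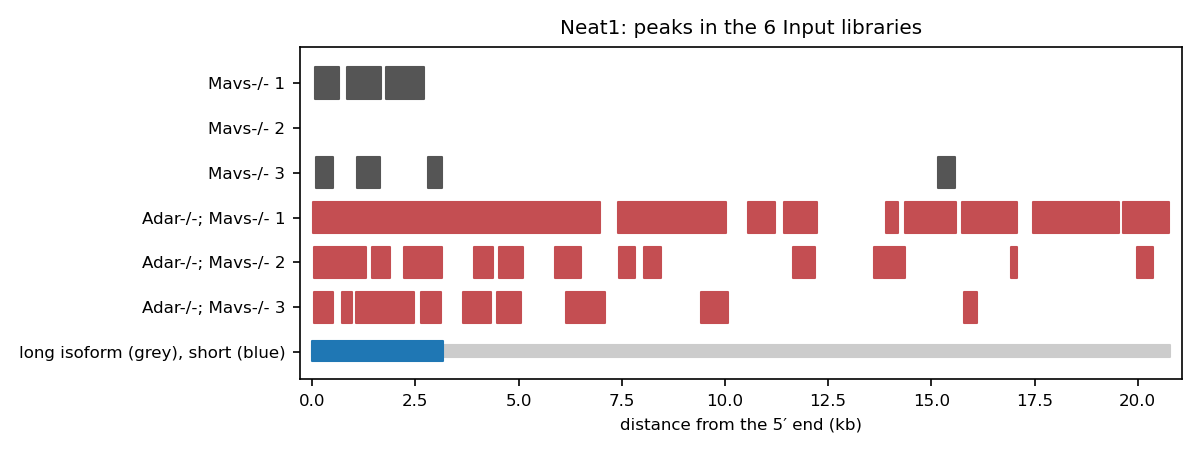
Input peaks along Neat1, with the distance from the 5′ end in kb on the x axis and 1 row for each Input library, grey for Mavs-/- and red for editing-deficient mice. The bottom row gives the long isoform in grey and the short isoform in blue. Mavs-/- peaks lie within the first 3172 nt except for 1 peak of 424 nt, whereas editing-deficient peaks spread along the long isoform.

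No digested library had a Neat1 peak, in either genotype. The covered share was 27.2 ± 29.8% in Input and 0 in RNase-only RNA (SD, n = 6 each), a difference that did not pass the test over all genes (exact permutation p = 0.020, adjusted p = 0.069). The call depended on Mavs-/- Input replicate 2, which had no Neat1 peak: without it the difference was -32.6 percentage points and the adjusted p 0.023 by the same exact permutation test.

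Inverted repeats, which can fold back into double-stranded RNA, were sought in the longest annotated transcript of each gene by aligning it to itself (at least 70 nt and 70% identity), a search added after the peaks were seen. Malat1 had none, and none were found in the longest annotated transcripts of Airn (1375 nt), Gas5 (2556 nt) and Snhg1 (2728 nt). The introns of Airn, where its only peaks lay, were not searched. Neat1 had 3 pairs, and Kcnq1ot1 4. Arms overlapped between pairs in both transcripts, and the 5′ arms of all 3 Neat1 pairs lay within positions 11277 to 11381. The best Neat1 pair joined 75 nt with 82.7% identity and 8171 nt between the arms (chr19:5834108-5834182 and chr19:5825862-5825936, minus strand). The best Kcnq1ot1 pair aligned over 108 nt with 91.7% identity and 63846 nt between the arms (chr7:143281162-143281269 and chr7:143217210-143217315, minus strand). Both pairs are printed because they have the highest percent identity of the pairs found in their transcripts, although 3 other Kcnq1ot1 pairs aligned over more bases (136, 144 and 167 nt). Capitals mark bases that can pair with the other arm in Watson-Crick fashion.
Neat1 arm 1: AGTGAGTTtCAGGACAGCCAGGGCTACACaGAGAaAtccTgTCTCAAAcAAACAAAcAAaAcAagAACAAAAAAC
Neat1 arm 2: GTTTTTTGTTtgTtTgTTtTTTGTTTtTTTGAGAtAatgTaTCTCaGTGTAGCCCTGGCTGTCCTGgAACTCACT
Kcnq1ot1 arm 1: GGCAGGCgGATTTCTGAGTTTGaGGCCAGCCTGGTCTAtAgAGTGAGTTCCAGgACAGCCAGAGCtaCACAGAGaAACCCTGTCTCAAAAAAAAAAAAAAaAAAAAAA
Kcnq1ot1 arm 2: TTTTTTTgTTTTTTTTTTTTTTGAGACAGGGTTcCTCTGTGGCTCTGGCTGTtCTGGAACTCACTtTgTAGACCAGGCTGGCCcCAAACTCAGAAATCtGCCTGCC

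Neither arm of the best Neat1 pair lay within a peak of any Input library, and no digested library had a peak on any arm of any Neat1 pair. In editing-deficient Input replicate 1, peaks lay on both sides of each arm. They ended at positions 11213 and 19541 and resumed at 11423 and 19648. Whether reads of repeats could be mapped there was not tested, so a missing peak on an arm does not show missing RNA. Of the other Neat1 pairs, the 3′ arm was inside an Input peak in 1 library and the 5′ arm in none. For Kcnq1ot1 no arm lay in a peak.

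Kcnq1ot1 (ENSMUSG00000101609.2, chr7:143203458-143296549, minus strand, 93092 nt), which silences imprinted genes around Kcnq1, was without a peak in all 18 libraries. As it was not listed in Input, its behaviour in the digest cannot be read from these lists. Its antisense partner Kcnq1, a potassium channel gene, had no exonic Input peak either, and an exonic RNase-only peak in 1 library.

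Airn (ENSMUSG00000078247.4, chr17:12741311-12860136, plus strand), which is transcribed across the Igf2r promoter and silences it on the paternal chromosome, was the only member of the 6 with peaks in digested RNA. All of them were intronic. Exonic bases of Airn were at 0 in all 18 libraries and no Input library had a peak anywhere in its 118826 nt. The nearest annotated exons were 4371 nt upstream and 10923 nt downstream, and no other gene is annotated at the site on either strand.

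RNase-only peaks were listed in 3 of 6 libraries. In Mavs-/- replicate 1 the peak was chr17:12803299-12803556 (258 nt, area 1135). In editing-deficient replicate 2 it was chr17:12803297-12803527 (231 nt, area 1115). Editing-deficient replicate 3 had a peak at chr17:12803285-12803568 (284 nt, area 1328) and a further peak at chr17:12802777-12803232 (456 nt, area 1219). The other 3 RNase-only libraries had none. The 3 libraries shared 229 bases, from position 61989 to 62217 counted from the 5′ end of the gene. The site was thus listed in both genotypes and in the absence of MDA5, although in only 1 of 3 Mavs-/- libraries.

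In MDA5-protected RNA, editing-deficient replicate 3 alone had peaks there, at chr17:12802811-12803201 (391 nt, area 779) and chr17:12803299-12803572 (274 nt, area 1041). Of their 665 bases, 661 also lay in RNase-only peaks of the same replicate number. The base sequence of the intron is not given here, since no genome sequence was used.

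**Figure D4:**
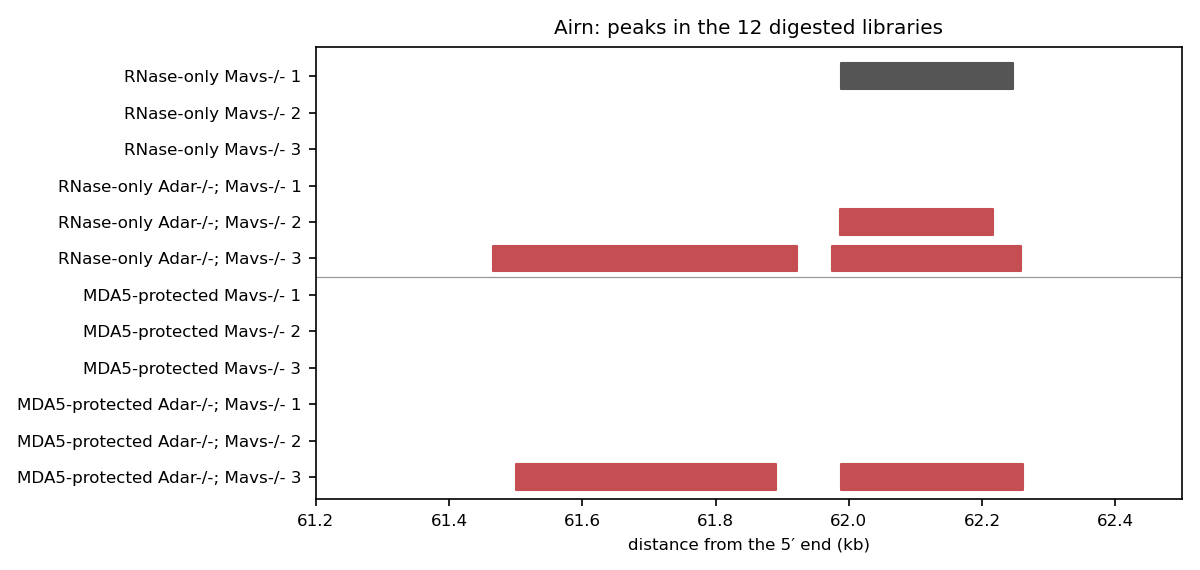
Peaks in an intron of Airn, with the distance from the 5′ end of the gene in kb on the x axis and 1 row for each of the 12 digested libraries, RNase-only above the line and MDA5-protected below it, grey for Mavs-/- and red for editing-deficient mice. The same place near 62.0 kb is marked in 3 RNase-only libraries of both genotypes and in 1 MDA5-protected library.

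Measured over the whole gene, introns included, the covered share of Airn was 0.17 percentage points higher in RNase-only RNA than in Input, which did not pass the test (exact permutation p = 0.20, adjusted p = 0.41). It was lower by 0.079 percentage points in MDA5-protected than in RNase-only RNA (mean difference -0.079, exact permutation p = 0.55, adjusted p = 1.00). By the joining step of the study, which keeps an RNase-only peak if another replicate has a peak at most 200 bp away, 740 nt of Airn were RNase-resistant in editing-deficient and 0 in Mavs-/- mice. That value needs both replicate 2 and replicate 3, since it was 0 without either, and 284 nt when an overlap of 1 bp between replicates was required. Joined MDA5-protected bases were 0 for all 6 genes in both genotypes, with and without subtraction of RNase-only peaks.

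Of the snoRNA host genes, Snhg1 had Input peaks on the same snoRNA in all 6 Input libraries, and Gas5 had 1 peak in 1 library. Snhg1 (ENSMUSG00000108414.1, chr19:8723475-8726443, plus strand, 2969 nt with all annotated isoforms) had 1 Input peak in each of the 6 libraries, all on Snord22, the longest snoRNA in the gene (126 nt). The peak was 108, 131 and 115 nt long in Mavs-/- and 111, 108 and 212 nt in editing-deficient libraries. It ended at the annotated 3′ base of Snord22 in 4 of 6 libraries, 1 nt short of it in Mavs-/- replicate 3 and 20 nt past it in Mavs-/- replicate 2. At the 5′ side, 18, 15 and 10 nt of Snord22 were uncovered in Mavs-/- and 15, 18 and 0 nt in editing-deficient libraries, where replicate 3 also had 86 nt upstream of it.

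The bases in the peak of all 6 libraries were 107 nt (chr19:8725884-8725990), the capitals of the Snord22 sequence above. Annotated isoforms of Snhg1 with retained introns run through Snord22, so reads of the snoRNA and of unspliced host RNA cannot be told apart in these lists. The remaining 7 snoRNAs of Snhg1, 65 to 76 nt long, were without a peak throughout. Snhg1 peaks covered 3.97 ± 0.397% of exonic bases in Mavs-/- and 4.84 ± 1.99% in editing-deficient Input (SD, n = 3 each), and the genotypes overlapped (two-sided exact permutation test, p = 0.90). The direction of that difference rests on editing-deficient replicate 3: without it the difference was -0.29 percentage points.

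Gas5 (ENSMUSG00000053332.13, chr1:161034422-161038539, plus strand) had a single peak in all libraries, in Input of editing-deficient replicate 1 (chr1:161036025-161036463, 439 nt, area 813). It held the whole of Gm22357 (83 nt, printed above) with 32 nt before and 324 nt after it, so most of the peak lay outside the snoRNA. It covered 11.7% of the exonic bases of Gas5, and the other 5 Input libraries were at 0. The remaining 9 snoRNA genes annotated in Gas5, 60 to 84 nt long, had no peak. As 10 snoRNA genes lie in its 4118 nt, a peak of 439 nt would overlap one at many positions. Whether this overlap exceeds that of a randomly placed peak was not tested.

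Over all snoRNA genes of the annotation, an Input peak in all 6 libraries was found in 1 of 458 genes under 100 nt (0.22%) and in 27 of 1049 of 100 nt or more (2.57%), a class that includes Snord22. The part of RNA size in library preparation and peak calling was not tested. The letters TGATGA, the box C of C/D snoRNAs, are in 72.1% of snoRNA transcripts under 100 nt and 6.01% of longer ones. CTGA, the box D, is in 92.4% and 73.9%. Gm22357 held each of them once, at position 9 and at position 76. Snord22 held CTGA at 2 places and TGATGA at none. Only the sense strand was searched, and the motifs do not overlap at these positions. Only these exact letters were counted, so Snord22 is not shown to lack a box C. The snoRNAs were not split by type, so the shares do not show that the motifs depend on length.

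**Figure D5:**
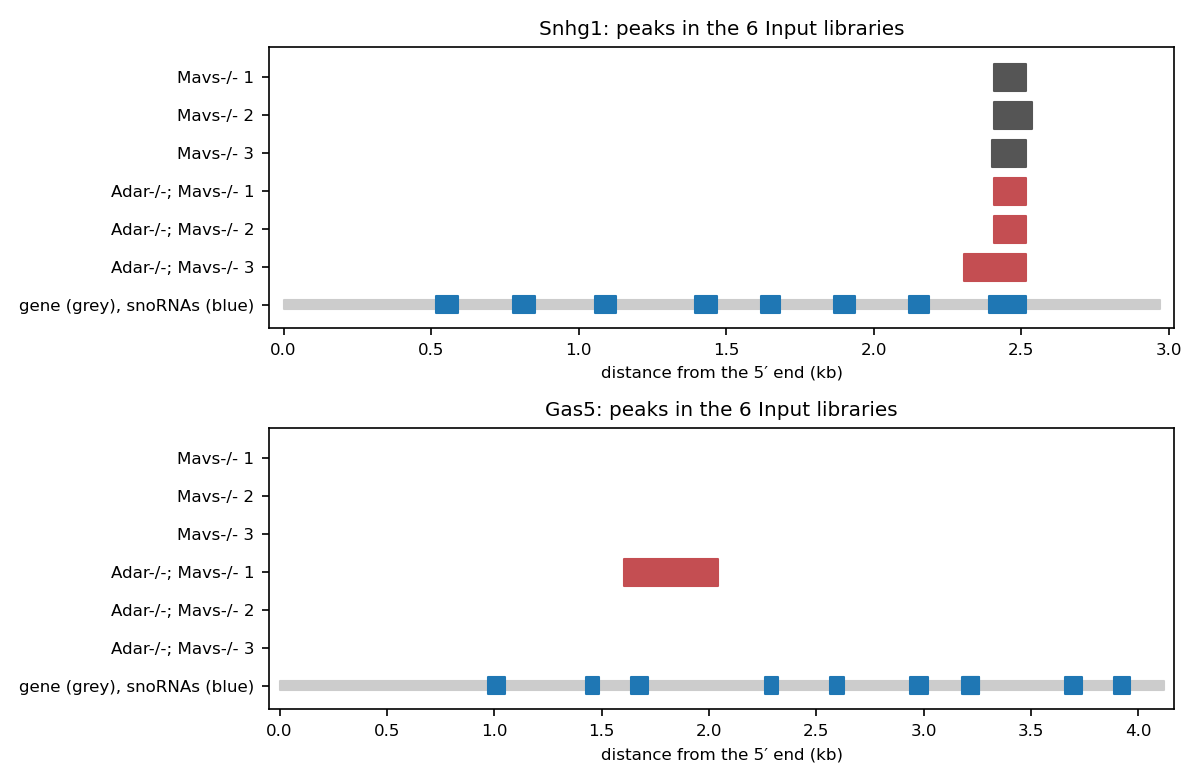
Input peaks along Snhg1 (top) and Gas5 (bottom), with the distance from the 5′ end in kb on the x axis and 1 row for each Input library, grey for Mavs-/- and red for editing-deficient mice. The bottom row of each panel shows the gene in grey and its annotated snoRNAs in blue. All 6 Snhg1 peaks lie on Snord22, and the only Gas5 peak includes Gm22357 and runs past it on both sides.

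No digested library had a peak in Snhg1 or Gas5. The covered share of Snhg1 fell from 4.41 ± 1.37% in Input to 0 in RNase-only RNA (SD, n = 6 each, exact permutation p = 0.005, adjusted p = 0.025). With a minimum area of 1000 for a peak, the fall was no longer called (difference -2.53 percentage points, adjusted p = 0.37, exact permutation test), since 3 of the 6 peaks had areas of 960 to 994. Gas5, with its single peak, did not pass the test (p = 1.00, exact permutation test). The genes whose covered bases followed those of Snhg1 most closely over the 18 libraries were Col4a2 and Apof (Spearman's rho 0.999 for both, among 2062 genes covered in at least 6 libraries). Both were covered in Input only, and all 12 digested libraries are ties at 0, so rho is set largely by that split.

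The 2 members with exonic Input peaks in all 6 libraries, Malat1 and Snhg1, both lacked a peak in digested RNA, as did 69.7% of all such genes, so the absence is common among them. A further 9 annotated RNAs were listed here as nuclear or chromatin-bound, without a measure of their location in the cell. Being on this list therefore does not show that an RNA, H19 included, is nuclear. Of these, 1 had exonic Input peaks in all 6 libraries, 4 in some and 4 in none. H19, the imprinted RNA made in fetal liver, was the RNA with peaks in all 6, with a covered share of 97.4 to 98.1% and no peak in digested RNA. Tug1 was the only RNA of that list with exonic peaks in digested libraries, 3 RNase-only and 3 MDA5-protected. Among 19 other annotated snoRNA host genes, 4 had exonic Input peaks in all 6 libraries, 7 in some and 8 in none. Exonic RNase-only peaks were listed in 3 of these hosts, Zfas1, Eif4a2 and Rpl13a, and MDA5-protected peaks in Eif4a2, a translation initiation factor gene, in 1 library.

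The GC content of the longest transcript was 42.5% in Malat1, 47.3% in Neat1, 40.3% in Kcnq1ot1, 46.5% in Airn, 42.3% in Gas5 and 40.5% in Snhg1. The quartiles of 29786 genes with a longest transcript of at least 1000 nt were 42.5% and 52.3%, with a median of 47.1%. Kcnq1ot1, Gas5 and Snhg1 lay below the lower quartile, and Malat1 lay almost on it (42.49% against 42.52%). The longest transcripts of Gas5 (2556 nt) and Snhg1 (2728 nt) take up much of the gene spans (4118 and 2969 nt). Their GC content may therefore include intron sequence and is not that of the spliced RNA alone.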

How the data were processed

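Peak lists of 18 libraries (6 groups of 3 biological replicates, as labelled) were used as the authors deposited them. Per the labels and the methods, the authors used Trim Galore 0.6.6 for trimming, NextGenMap for alignment to GRCm38 and Genrich 0.6.1 for calling peaks on each strand, with an adjusted p of at most 0.01, an area of at least 500 and gaps of at most 20 bp. ENCODE blacklist regions and rRNA were excluded. The deposited area is a score, and the deposited significance is a −log10 p-value and −log10 adjusted p-value. Starts are given counted from 1.

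Covered shares were computed over the union of annotated exons (GENCODE M21, own strand) for all genes. Genotypes were compared with exact permutation tests of 3 libraries against 3. Fractions were compared with exact permutation tests of 6 against 6 within genotype (400 arrangements), with Benjamini-Hochberg adjustment over all genes with a peak in either fraction and a threshold of 0.05. Because the smallest p is 0.005, a call needs many genes at that p: on simulated data, 200 of 200 planted genes were called among 1000 genes, but 0 of 200 among 2200, although all 200 had the smallest p. Joined positions followed the steps of the study (200 bp between replicates, pieces of at least 10 bp). Inverted repeats were found with blastn 2.17.0 (word size 11). All 6 members are named, overlapping genes where a peak lay on them, and for members covered in at least 6 libraries the 2 genes with the most similar coverage, which for Malat1 are not reported here. Alternatives covered strand, gene model, overlap, area, significance, equal numbers of peaks, omitted replicates and the replicate block. Members and lists were chosen with earlier results of these data known. Editing was not analysed here. Python 3.11.15, NumPy 2.4.6 and SciPy 1.17.1 were used.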

Additional observations from a re-analysis of the deposited data

How the results depend on the processing

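The lists bound what can be said: they carry no read counts, an Input peak and a digested peak answer to different controls, and 3 libraries a group cannot give p under 0.10. Of 80 alternative values for the 4 tested differences between RNase-only and Input that were not 0, 74 kept their direction and their side of the threshold. Part of these 80 could not have changed, so 74 overstates the stability. Shares of these genes were 0 in all RNase-only libraries, so leaving out an RNase-only library left each difference as it was. Gas5, with its single peak, could not pass the threshold in any setting. The other 134 values say little of stability, since they belong to exonic Airn shares of 0 (68), to genotype differences that could not pass 0.05 (56) or to joined bases without a test (10). The fall of Malat1 and Snhg1 from Input to RNase-only was not called with the replicate block, a sign-flip test over same-numbered libraries (differences -92.6 and -4.41 percentage points, adjusted p = 0.16 by exact permutation for both), whose smallest p of 0.031 gave 0 calls among 7244 genes, with 1454 genes at an unadjusted p under 0.05. The numbers were not taken as pairs, since deviations from group means of same-numbered Input and RNase-only libraries correlated at -0.11 to -0.021 (MDA5-protected with RNase-only 0.061 to 0.28, Input of both genotypes -0.056 to -0.0087).

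With a minimum area of 1000, the Snhg1 fall became -2.53 percentage points, its difference between genotypes turned to -0.30, and both Gas5 differences became 0. Over the whole gene span, Airn values moved from 0 to 0.17 (RNase-only minus Input), -0.079 (MDA5-protected minus RNase-only), 0.20 (RNase-only by genotype) and 0.19 (MDA5-protected by genotype) percentage points. Its joined RNase-resistant bases were 284 with a 1 bp overlap and 0 with 3 of 3 replicates. With libraries left out in turn, they ranged from 0 to 740 nt. The Neat1 difference (RNase-only minus Input) ranged from -32.6 to -16.1, the Snhg1 genotype difference from -0.29 to 1.47, the Malat1 genotype difference from 0.59 to 3.07, the Gas5 difference between RNase-only and Input from -2.34 to 0 and the Gas5 genotype difference from 0 to 5.84 percentage points. With the area minimum of 1000, fewer genes were tested: 606 of 3098 (19.6%) had a lower share in RNase-only, against 1261 of 7244 (17.4%), and 389 of 2342 (16.6%) separated upwards in editing-deficient Input, against 870 of 5274 (16.5%). With equal numbers of peaks, 384 of 3591 (10.7%) did.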
